A study of Mus musculus with 8 samples.

Results

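The genes described here are the 3 mouse Runx genes, Runx1, Runx2 and Runx3, and Cbfb, the gene of their common partner subunit. They were chosen by name, as 4 of the 27318 gene identifiers in the count tables, and all 4 had counts on every plate. All 4 passed the count filter in the main fit of each comparison described below. Single bone marrow cells of the LSK gate (lineage-negative, Sca1-positive, cKit-positive), in which stem cells and the earliest progenitors of blood lie, had been sequenced by CEL-seq2. The cells came from Dach1-GFP mice, a line made from 1 targeted C57BL/6 embryonic stem cell clone, in which a biotin tag precedes the stop codon of Dach1 and an IRES-GFP follows it. The selection cassette had been removed with Flpe, the mice were 8 to 16 weeks old per the labels, and marrow had been enriched for cKit with magnetic beads before staining. The labels do not say whether the allele was on 1 or both chromosomes, nor which mice supplied each plate. There is no treatment and no second genotype, so every comparison was made inside a plate, between cells that carried little and much of 1 of 4 proteins read by the sorter. These were GFP as a stand-in for Dach1 transcription, CD135 (the FLT3 receptor), CD150 (SLAMF1, carried by long-term stem cells and some of their myeloid progeny) and Sca1.

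RUNX proteins bind DNA through the Runt domain and need CBFβ, the product of Cbfb, to hold DNA firmly and to escape degradation. RUNX1 is required for the first blood stem cells to form in the embryo and later for platelet formation and lymphocyte development. RUNX2 is best known as the master regulator of bone formation, and RUNX3 for its part in cytotoxic T cells and in sensory neurons. The Runx genes each have a distal and a proximal promoter, but CEL-seq2 counts the 3′ end of a transcript, so transcripts from the promoters of a gene cannot be told apart here.

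The Runx genes share a sequence at their starts, shown because it is what their promoters have in common and Cbfb lacks in these windows. RefSeq promoter windows for GRCm38.p6, from 250 bases before to 50 bases after an annotated start, were found for all 4 genes. There were 2 windows for Runx1, 1 for Runx2, 2 for Runx3 and 1 for Cbfb. The motif searched was TGTGGT on both strands, the core that RUNX proteins bind (ACCACA on the other strand), and the pair ACCACAGAACCACA, which contains that core 2 times. Each stretch below has 30 bases, 5′ to 3′ on the gene's strand, with the pair in capitals.
Runx1, chr16:92826025-92826054, minus strand: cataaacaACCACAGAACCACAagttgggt
Runx2, chr17:44814583-44814612, minus strand: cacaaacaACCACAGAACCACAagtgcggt
Runx3, chr4:135120503-135120532, plus strand: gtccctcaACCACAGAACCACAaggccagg
The pair lay at bases 29 to 42 after the start in the Runx1 window and at bases 24 to 37 after the start in the Runx2 window, counting the start as base 1. In the Runx3 window it lay at bases -134 to -121, before the start. It occurred in 4 of 32851 promoter windows (0.0122%), the fourth being a window of Gm16225. The core alone occurred in 16.8% of windows. The second windows of Runx1 and Runx3 and the Cbfb window held neither. A match is a description of letters and was not tested as a binding site.

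After filtering, 2712 cells remained, 335 to 340 per plate, with median counts per cell of 11586 to 13398 on the 4 plates named LC and 5627 to 7525 on the 4 named LCE. Transcripts of the sorted proteins moved with them: Dach1 was 12.6 ± 7.23 CPM (a gene's counts scaled to the library total; SD, n = 8 plates) in the lowest and 51.9 ± 17.1 CPM in the highest GFP tercile. Flt3 was 77.8 ± 32.6 and 312 ± 72.2 CPM by CD135, Slamf1 0.675 ± 0.638 and 4.60 ± 2.23 CPM by CD150, and Ly6a, the gene of Sca1, 30.7 ± 12.4 and 117 ± 12.7 CPM by Sca1. Each was higher in the high tercile on 8 of 8 plates. Of the genes of the gate's own proteins, Kit had a count in 79.8% and Ly6a in 36.8% of kept cells. The listed stem and progenitor genes ran from 88.1% (Cd34) down to 23.4% (Mecom) and 15.0% (Procr). However, 351 cells had counts of at least 2 of 9 B lineage genes and 110 met the rule for another mature cell. Replicate 4, an LC plate, stood apart, with 60 of those 110 cells. The sorted proteins were not independent of each other over cells: the median rank correlation over plates was -0.52 for GFP with CD135, 0.29 for CD135 with Sca1 and -0.33 for CD135 with CD150.

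All 4 genes had counts in every tercile of every plate. Runx1 was the highest of the 3 Runx genes, with 103 CPM on the lowest plate, a median of 119 CPM and 139 CPM on the highest. Cbfb lay at 93.3, 115 and 126 CPM in the same order. Runx2 (60.2, 83.7 and 109 CPM) and Runx3 (71.6, 86.1 and 94.5 CPM) were lower, and their plate ranges overlapped. Mean levels over the 8 plates were 121 ± 13.9 CPM for Runx1, 111 ± 10.5 CPM for Cbfb, 84.6 ± 7.87 CPM for Runx3 and 83.7 ± 16.5 CPM for Runx2. On the same plate, Runx1 was above Cbfb on 7 of 8 plates (mean difference 9.24 ± 7.98 CPM, SD), Cbfb above Runx3 on 8 of 8 and Runx3 above Runx2 on 5 of 8. Runx3 and Runx2 thus had no fixed order. A CEL-seq2 level is 1 tag per transcript copy and is not divided by gene length.

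The plate sets differed in Runx2. It was 60.2 to 76.3 CPM on the LC plates and 91.2 to 109 CPM on the LCE plates, ranges that did not overlap. Runx1 went the other way in its mean, with 130 ± 10.8 CPM on the LC and 111 ± 9.75 CPM on the LCE plates. Runx3 and Cbfb means differed by less than the spread between plates of a set. The sets also differed in depth and in spike-in counts (3.27% to 4.36% of counts on LC plates, 0 on LCE plates), which cannot be told apart from the set, so the comparisons below stay inside plates.

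A count of a member was found in 46.2% to 57.5% of cells, depending on the gene. Before thinning, Runx1 had a count in 57.5% ± 10.1, Cbfb in 57.3% ± 10.8, Runx2 in 46.5% ± 3.22 and Runx3 in 46.2% ± 8.45 of cells (SD, n = 8 plates). With each cell thinned to 3000 counts, which left out 40 of the 2712 cells, these shares were 29.2% ± 3.05, 26.7% ± 3.24, 22.02% ± 4.48 and 20.7% ± 1.69. Of thinned cells, 7.08% ± 1.44 had both Runx1 and Runx2, where the product of their shares was 6.39% ± 1.26, and the observed share was above the product on 7 of 8 plates. For Runx2 with Runx3 the values were 4.76% ± 1.11 and 4.56% ± 1.02, above on 5 of 8 plates. At this depth, a cell without a count cannot be read as a cell without the transcript.

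Runx2 was the member that moved most with CD135. In the lowest CD135 tercile it was 40.6 CPM on the lowest plate, 60.2 CPM at the median and 87.2 CPM on the highest. In the highest tercile the values were 74.3, 99.8 and 113 CPM. It was higher in the CD135-high cells on 8 of 8 plates. Over all plates the arms overlapped, but inside each set they did not: 40.6 to 51.3 against 74.3 to 102 CPM on LC plates, and 69.1 to 87.2 against 96.0 to 113 CPM on LCE plates. The edgeR log2 difference was 0.74 ± 0.10 (SE; adjusted p = 2.45e-07 over 10441 genes). The cells with middle CD135 were at 92.9 ± 22.5 CPM, above the low tercile on 8 of 8 plates and below the high tercile on 6 of 8. The exceptions were LCE plates, replicates 6 and 7, with 112 and 133 CPM in the middle and 96.0 and 109 CPM in the high tercile.

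**Figure D1:**
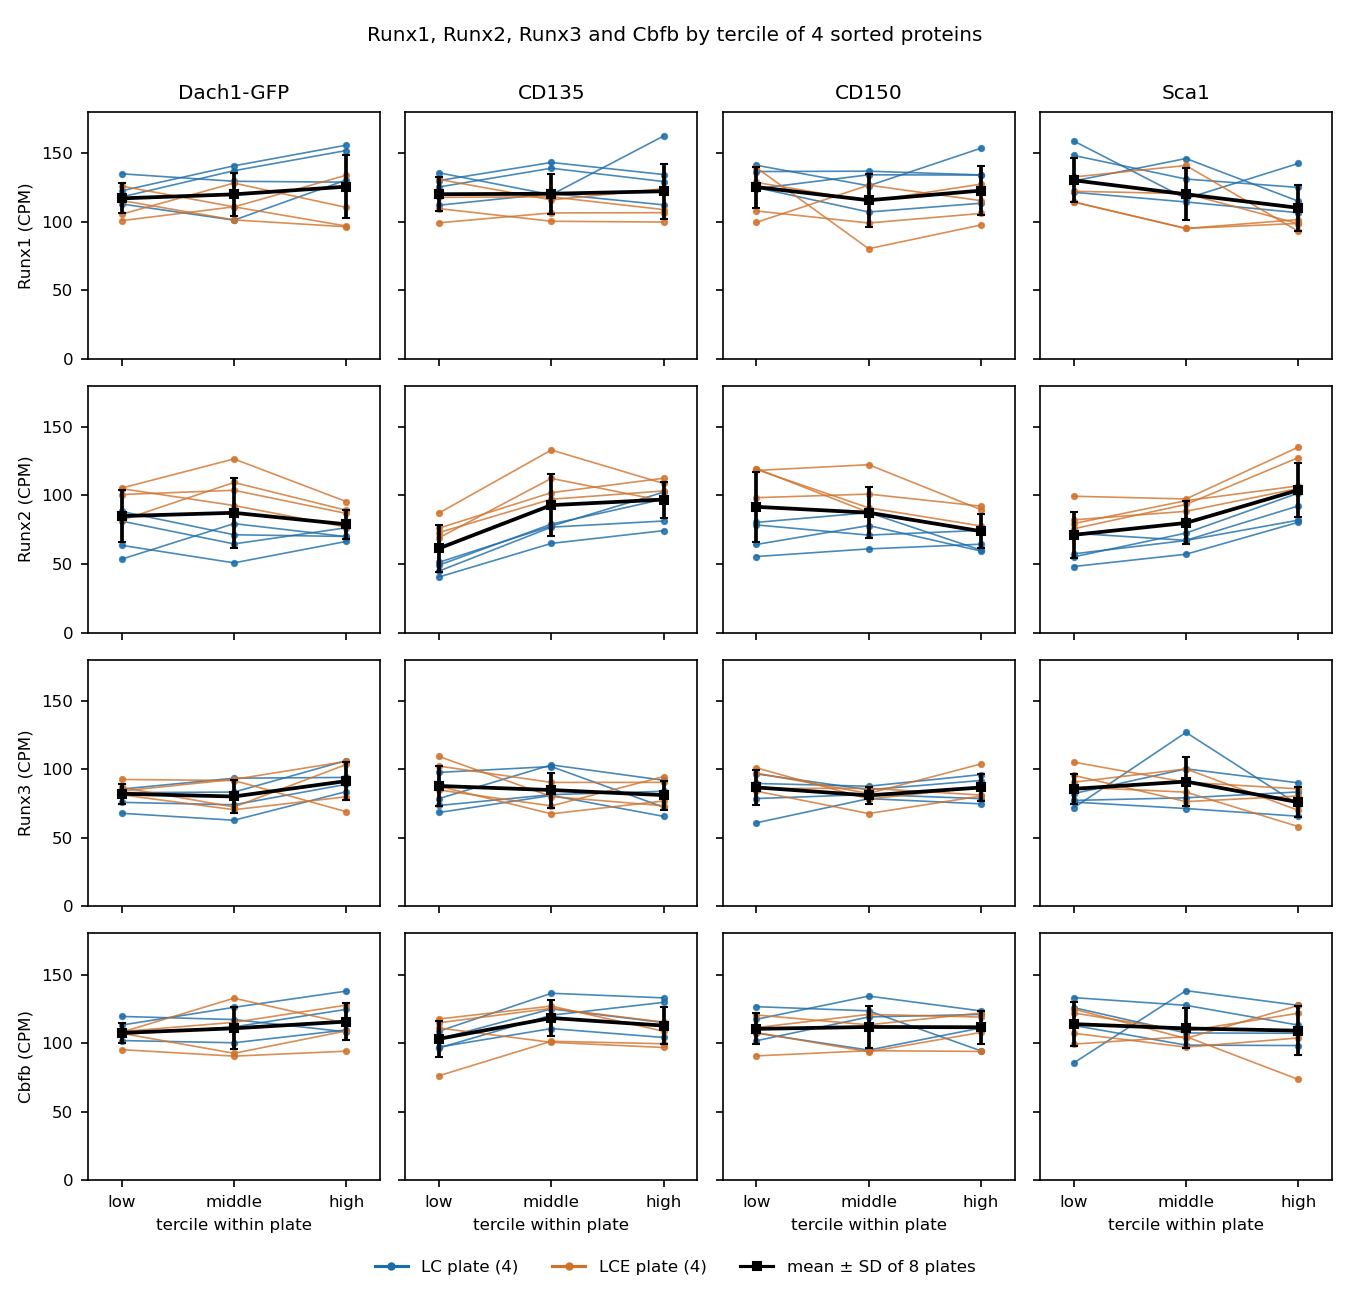
Levels of Runx1, Runx2, Runx3 and Cbfb (rows, CPM) in the low, middle and high tercile of the cells of a plate by Dach1-GFP, CD135, CD150 and Sca1 (columns). Thin lines are plates (blue LC, orange LCE) and black squares are the mean ± SD of 8 plates. Mean Runx2 was 61.4 CPM in the low and 96.98 CPM in the high CD135 tercile. By Sca1 it was 71.3 and 104 CPM.

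The other members did not pass the test by CD135, where 11.2% of all tested genes passed and 1 of the 4 members did. Runx1, whose product binds the same DNA core, was 120 ± 12.5 CPM in CD135-low and 122 ± 20.2 CPM in CD135-high cells, a log2 difference of 0.05 ± 0.07 (edgeR adjusted p = 0.76). Cbfb was 103 ± 13.3 and 113 ± 13.3 CPM (0.16 ± 0.08, adjusted p = 0.23), and Runx3 87.9 ± 14.3 and 81.2 ± 10.6 CPM (-0.08 ± 0.10, adjusted p = 0.70). The arms of these 3 genes overlapped. The log2 ratio of Runx2 exceeded that of each other member on 8 of 8 plates, by 0.67 ± 0.19 over Runx1, 0.79 ± 0.31 over Runx3 and 0.56 ± 0.22 over Cbfb (SD, n = 8). Each gave p = 0.0078 by the exact two-sided sign-flip test over plates, the smallest that 8 plates allow, and p = 0.0094 adjusted over 6 such comparisons, 3 by CD135 and 3 by Sca1. Runx2 was singled out for these comparisons after its values were seen.

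The size of the Runx2 difference varied with the plates and cells used, and it passed in each of the 19 alternatives run. It was 0.95 ± 0.13 on LC plates alone (edgeR adjusted p = 4.2e-06) and 0.48 ± 0.13 on LCE plates alone (adjusted p = 0.019). The difference between the sets, -0.46 ± 0.19, did not pass (adjusted p = 0.39). Such differences between the sets passed for none of the 4 members in any tercile comparison, where 0.642% of tested genes passed by CD135, 0.0873% by GFP, 0.684% by CD150 and 0.128% by Sca1. They passed for none among CD135-high cells by GFP (0.026% of genes) or among CD135-low cells by CD150 (2.45%) either. B lineage genes moved with this comparison: 172 B lineage cells lay in the CD135-low and 82 in the CD135-high tercile of 901 cells each, and all 9 B lineage genes had counts in both. Their summed level had a median of 228 CPM (range 41.5 to 478) in CD135-low and 86.0 CPM (19.9 to 162) in CD135-high cells. Without B lineage and other mature cells, the Runx2 difference was 0.63 ± 0.11 (adjusted p = 3.12e-05).

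Runx2 rose with Sca1 as well. In the lowest Sca1 tercile it was 48.2 CPM on the lowest plate, 74.1 CPM at the median and 99.4 CPM on the highest, and in the highest tercile 80.4, 103 and 135 CPM. The high tercile was above the low on 8 of 8 plates, and inside each set the arms did not overlap (48.2 to 72.4 against 80.4 to 102 CPM on LC plates, 75.7 to 99.4 against 105 to 135 CPM on LCE plates). The log2 difference was 0.56 ± 0.09 (edgeR adjusted p = 5.12e-06 over 10162 genes). The middle tercile, at 79.9 ± 15.7 CPM, lay below the high tercile on 8 of 8 plates and above the low on 6 of 8. LC plates alone gave 0.62 and LCE plates alone 0.48, and both passed. Without the plate as a block the value was 0.55 (adjusted p = 0.21).

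Runx1 fell slightly with Sca1, with a call that depended on the processing. It was 114 CPM on the lowest plate, 126 CPM at the median and 159 CPM on the highest in Sca1-low cells, and 92.9, 104 and 142 CPM in Sca1-high cells. It was lower in the high tercile on 8 of 8 plates, with overlapping arms over all plates. The log2 difference was -0.23 ± 0.07 (edgeR adjusted p = 0.033). With Runx2 this made 2 of 4 members passing by Sca1, in opposite directions, where 11.8% of all tested genes passed. The Runx1 call was lost in 11 of 19 alternatives, among them without B lineage and other mature cells (-0.15, adjusted p = 0.29) and with cells thinned to 3000 counts (-0.14, adjusted p = 0.62). It was also lost without replicate 1, 2, 7 or 8 (adjusted p = 0.051, 0.074, 0.064 and 0.095). Depth moved with Sca1: the median over plates of the median counts per cell was 10828 in Sca1-low and 8664 in Sca1-high cells, and its part in the Runx1 difference was not tested beyond the thinning. B lineage cells numbered 156 in the low and 72 in the high tercile.

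Runx3 was 85.8 ± 11.2 CPM in Sca1-low and 76.1 ± 10.9 CPM in Sca1-high cells (-0.13 ± 0.09, edgeR adjusted p = 0.44). Cbfb was 114 ± 15.9 and 109 ± 18.0 CPM (-0.05 ± 0.08, adjusted p = 0.75). The Runx2 ratio by Sca1 exceeded that of Runx1 by 0.80 ± 0.26 and that of Runx3 by 0.73 ± 0.32, each on 8 of 8 plates (exact sign-flip p = 0.0078, adjusted p = 0.0094). It exceeded that of Cbfb by 0.62 ± 0.41 on 7 of 8 plates (exact sign-flip p = 0.016, also after adjustment). Here too, Runx2 was singled out for the comparisons after its values were seen.

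By Dach1-GFP itself, none of the 4 members passed, where 7.74% of tested genes did. Runx2 was 53.5, 85.1 and 105 CPM (lowest, median and highest plate) in the GFP-low tercile and 66.5, 76.7 and 95.5 CPM in the GFP-high one, ranges that overlapped. Its log2 difference, GFP-low minus GFP-high, was 0.10 ± 0.10 (edgeR adjusted p = 0.66). Runx1 had a median of 117 CPM over plates in the GFP-low tercile and 129 CPM in the GFP-high one (-0.10 ± 0.08, adjusted p = 0.55). Runx3 was 82.2 ± 7.45 and 91.5 ± 13.5 CPM (-0.16 ± 0.09, adjusted p = 0.37), and Cbfb 108 ± 7.17 and 116 ± 13.8 CPM (-0.09 ± 0.08, adjusted p = 0.61). There were 181 B lineage cells in the lowest tercile of GFP against 82 in the highest. The summed level of the 9 B lineage genes had a median of 288 CPM (range 32.0 to 792) and 71.3 CPM (21.1 to 148), and that of the 6 megakaryocyte and platelet genes 26.5 CPM (17.8 to 52.5, Ppbp at 0) and 116 CPM (64.6 to 187.6). Without B lineage and other mature cells, the GFP differences were -0.03 (Runx1), 0.17 (Runx2), -0.13 (Runx3) and -0.09 (Cbfb), and none passed. The part of these cells, and of the megakaryocyte and platelet genes, was not tested further. At unadjusted p below 0.05 in the main fit, none of the 4 members passed either, and DESeq2 called none. The same comparison among cells above the plate median of CD135 gave no call for any member, with log2 differences from -0.11 (Cbfb) to 0.10 (Runx3), where 3.93% of 7702 tested genes passed.

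By CD150, 2.06% of tested genes and none of the 4 members passed. Runx2 was 55.4, 89.4 and 120 CPM (lowest, median and highest plate) in CD150-low and 59.5, 73.9 and 92.2 CPM in CD150-high cells, lower in the high tercile on 7 of 8 plates. Its log2 difference was -0.27 ± 0.10 (edgeR adjusted p = 0.23, unadjusted p = 0.013). On the LCE plates alone it passed, with -0.45 ± 0.13 (adjusted p = 0.018), and there the arms did not overlap (98.4 to 120 against 73.2 to 92.2 CPM). On the LC plates they did. B lineage cells numbered 76 in the CD150-low and 164 in the CD150-high tercile and other mature cells 23 and 61. With counts pooled over the cells of a set, Runx2 was 52.9 CPM in B lineage and 72.7 CPM in the remaining cells on LC plates. On LCE plates the values were 85.4 and 99.4 CPM. These levels have no spread over plates. Without B lineage and other mature cells the Runx2 difference was -0.23 (edgeR adjusted p = 0.44), and their part in it was not tested further. The difference between the sets was -0.34 ± 0.20 and did not pass (adjusted p = 0.63). Runx1, Runx3 and Cbfb had log2 differences of -0.03, 0.02 and 0.01. Among cells at or below the plate median of CD135, CD150 gave no call for a member either (0.741% of 7151 tested genes passed), and Runx2 stood at -0.14 ± 0.16.

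Because the 4 proteins go together over cells, they were also put into 1 additive fit, on sums of cells split at the plate median of each protein. In this fit every value is above minus below the median, with the other 3 proteins in the model, over the 2431 genes that passed the count filter. Up to 16 sums of a plate enter as separate observations, with the plate as a block, so sums that share a plate count as replicates and the p-values of this fit can be too small. Runx2 passed for 3 of the 4 proteins: 0.59 ± 0.09 for CD135 (edgeR adjusted p = 5.31e-07), 0.27 ± 0.09 for Sca1 (adjusted p = 0.032) and 0.27 ± 0.09 for GFP (adjusted p = 0.032). For CD150 it was -0.03 ± 0.09 (adjusted p = 0.94). The Sca1 call was lost with mean ranks of fluorescence in place of the split (0.41 ± 0.18 per full range of ranks, adjusted p = 0.16). Without B lineage and other mature cells, Runx2 did not pass the count filter of this fit, so its calls here could not be checked that way. The GFP value has the opposite direction to the tercile difference, which was 0.10 for GFP-low minus GFP-high and did not pass. GFP and CD135 were anticorrelated over cells, and a median of 5.33% of GFP-high cells were also in the CD135-high tercile.

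Cbfb passed in this additive fit alone, with the limit just given, and not in the tercile fits (0.16, adjusted p = 0.23 by CD135). Its values were called for CD135 (0.25 ± 0.07, edgeR adjusted p = 0.0096) and for GFP (0.23 ± 0.07, adjusted p = 0.022). It passed for both with DESeq2, with ranks, and without B lineage and other mature cells (0.30 and 0.33). Runx1 had 0.14 ± 0.08 for CD135 and 0.08 ± 0.08 for GFP, and Runx3 0.05 ± 0.09 and 0.18 ± 0.09. Neither passed for any protein. The shares of all tested genes that passed in this fit were 18.6% for CD135, 14.4% for GFP, 11.4% for Sca1 and 3.21% for CD150, so 2 of 4 members by CD135 and 2 of 4 by GFP stand against these.

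**Figure D2:**
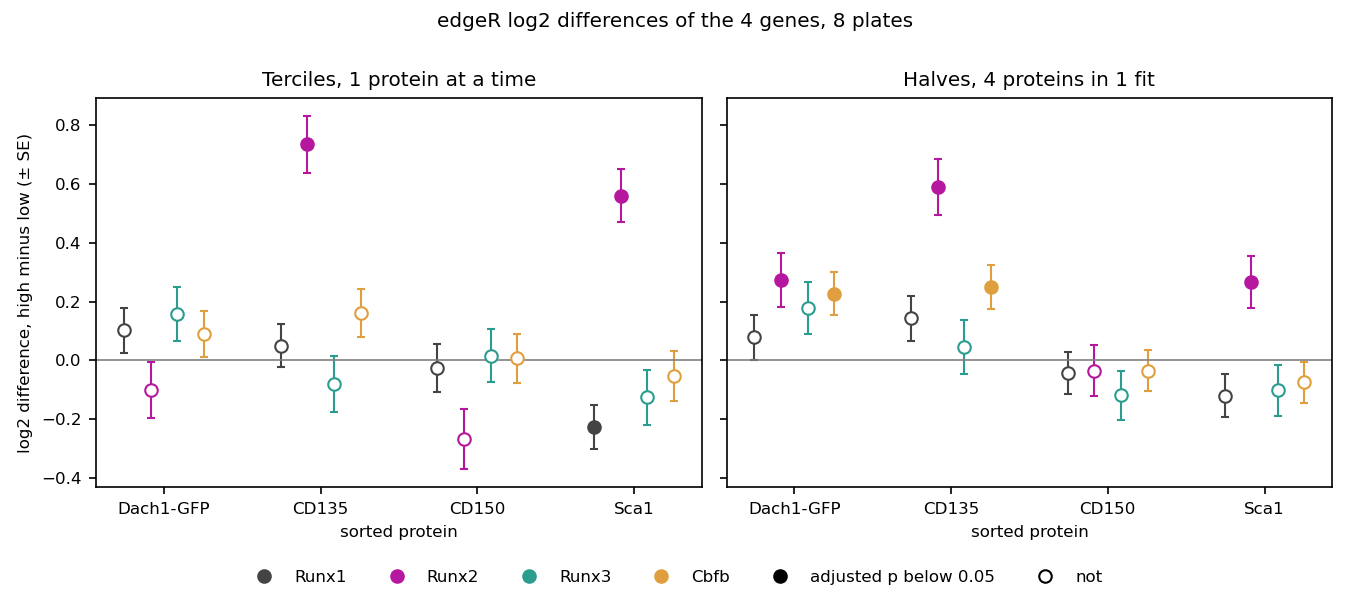
Log2 differences ± SE of the 4 genes, all drawn as high minus low (the GFP tercile values of the text have the opposite sign), from the tercile fits (left) and the fit of 4 proteins (right). Filled points had an adjusted p below 0.05; Runx2 is filled for CD135 and Sca1 in both panels, with 0.74 and 0.59 for CD135.

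The makeup of the Runx counts was described too. Over all kept cells, Runx1 gave 41.9% ± 4.88, Runx3 29.3% ± 1.97 and Runx2 28.9% ± 4.67 of the 3 genes' summed counts (SD, n = 8 plates). From the low to the high CD135 tercile, Runx2 went from 22.5% ± 4.40 to 32.3% ± 3.81, while Runx1 went from 44.9% ± 6.27 to 40.6% ± 4.55 and Runx3 from a mean of 32.5% to 27.1%. From the low to the high Sca1 tercile, Runx2 went from 24.6% ± 4.65 to 35.9% ± 6.42 and Runx1 from 45.5% ± 6.17 to 37.9% ± 4.59. The ranges of the 2 genes over plates overlapped in the Sca1-high tercile (32.4% to 43.0% for Runx1, 28.2% to 45.8% for Runx2) and not in the Sca1-low one (37.9% to 53.6% and 18.6% to 31.9%). By GFP the Runx2 share was 29.6% ± 4.57 in the low and 26.9% ± 4.51 in the high tercile. The shares are parts of 1 sum, so a higher share of Runx2 lowers those of the others. The Runx1 level itself had a log2 difference of 0.05 ± 0.07 (SE) by CD135 and -0.23 ± 0.07 by Sca1. These shares are a description of the same counts and got no test.

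**Figure D3:**
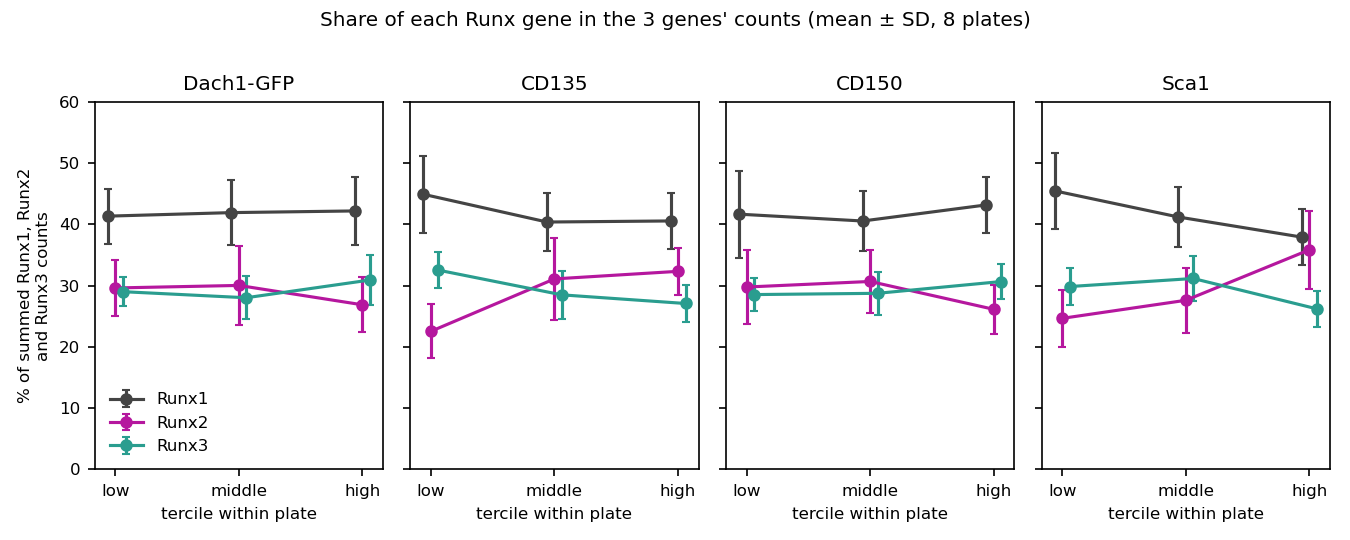
Share of Runx1, Runx2 and Runx3 in the summed counts of the 3 genes (%, mean ± SD of 8 plates) in the low, middle and high tercile of each sorted protein. The Runx1 and Runx2 lines approach each other with Sca1, to 37.9% and 35.9% in the high tercile.

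The share of cells with a Runx2 count was also taken after depth was equalised. It was 17.4% ± 5.01 of thinned cells in the CD135-low, 24.8% ± 5.72 in the middle and 23.8% ± 4.78 in the CD135-high tercile (37.7% ± 6.05, 49.4% ± 2.92 and 52.3% ± 3.82 unthinned). By Sca1 it was 19.6% ± 5.51, 20.9% ± 5.19 and 25.6% ± 3.83 of thinned cells (45.0%, 44.5% and 50.1% unthinned). Runx1 had a count in 30.05% ± 5.39 of cells in the Sca1-low and 27.8% ± 2.56 in the Sca1-high tercile after thinning, where the unthinned shares were 63.4% ± 10.6 and 51.5% ± 9.80. Over single cells the relations were weak. The rank correlation of Runx2 level with CD135 ran from 0.07 to 0.20 over the 8 plates (median 0.15) and that with Sca1 from 0.05 to 0.13 (median 0.08), for 335 to 340 cells each that share a plate and library. For Runx1 with CD135 the range was -0.03 to 0.08.

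Splitting each plate at its medians of GFP, CD135 and CD150 gave 8 classes. Runx2 was lowest in the cells low for GFP and CD135 and high for CD150 (45.2 ± 22.9 CPM) and next in those low for all 3 proteins (60.8 ± 32.8 CPM). It was 74.0 ± 12.6 and 77.5 ± 27.7 CPM in the GFP-high, CD135-low classes with high and low CD150. All 4 CD135-high classes were higher, with means from 92.0 to 106 CPM. Neighbours in this order differed by less than their spread over plates. Runx3 was lowest in the same class as Runx2 (62.8 ± 18.5 CPM) and highest in the GFP-high, CD135-low, CD150-high class (93.5 ± 11.6 CPM). B lineage cells were more numerous in the GFP-low, CD135-low and CD150-high terciles than in the opposite ones, and their part in the class levels was not tested. Mean levels of Runx1 ranged from 98.3 to 126 CPM and those of Cbfb from 98.1 to 130 CPM over the classes. The smallest class held 11 cells of a plate, so single values there rest on few counts.

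On the LCE plates CD48 was recorded too, which allows gates like those used for stem cells and multipotent progenitors, here set at plate medians and so wider than usual gates. In the CD135-low, CD48-low, CD150-high gate, the one that would hold long-term stem cells, Runx2 was 41.5, 70.5, 84.7 and 91.2 CPM on the 4 plates. In the CD135-low, CD48-low, CD150-low gate it was 99.1 to 108 CPM, above every plate of the gate before. This difference between gates got no test. The nearest tested comparison, CD150-high minus CD150-low among CD135-low cells of both plate sets, took no account of CD48. It gave Runx2 a log2 difference of -0.14 ± 0.16 (edgeR adjusted p = 0.91). LC plates alone gave 0.208. The difference between the sets, LCE minus LC, was -0.71 ± 0.30 and did not pass (adjusted p = 0.23). Runx2 was 73.0 to 90.6 CPM in the CD48-high, CD150-high gate and 69.6 to 112 CPM in the CD48-high, CD150-low gate. The CD135-high cells had 105 to 163 CPM where GFP was high and 100 to 112 CPM where GFP was low, ranges that overlapped. Runx1 was lowest in the CD135-low, CD48-high, CD150-low gate (86.3 ± 9.64 CPM, 82 cells), where Runx3 was highest (102 ± 13.8 CPM). Mean Cbfb levels lay between 96.5 and 122 CPM in the 6 gates, with single plates from 47.0 to 159 CPM.

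**Figure D4:**
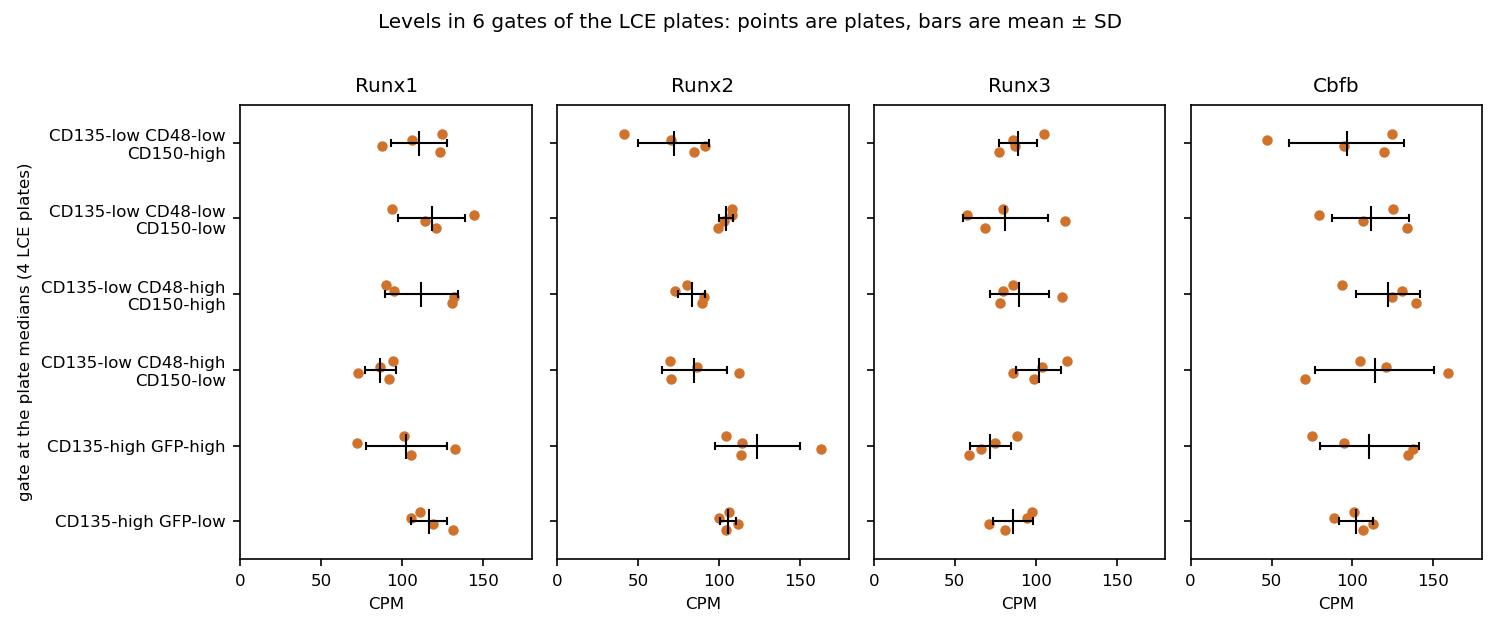
Levels (CPM) of the 4 genes in 6 gates of the 4 LCE plates, with points for plates and bars for the mean ± SD. Runx2 lies at 72.0 ± 22.1 CPM in the CD135-low, CD48-low, CD150-high gate and at 124 ± 26.4 CPM in the CD135-high, GFP-high gate; the other 3 genes overlap between most gates.

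The genes whose pattern over the 64 sums (8 classes on 8 plates, centred within plates) was most like that of Runx2 were Sox4 (Pearson r = 0.76), Elk3 (0.76), Eef1a1 (0.76), Cd27 (0.75) and Slco3a1 (0.75), of 7145 genes compared. Sox4 encodes a transcription factor of early B cell development, Elk3 an ETS factor, Eef1a1 a translation elongation factor and Cd27 a receptor found on lymphoid-primed progenitors. For the other members the nearest genes were less alike. Runx1 had Helz (0.59), Tbc1d5 (0.55), Rnf14 (0.52), Smad5 (0.51) and Tmod3 (0.51), and Runx3 had, among others, Prkar2a (0.57), Dgkz (0.56), Plpbp (0.56) and Mvb12b (0.55). Cbfb had Kmt2a (0.59), the gene of the MLL histone methyltransferase, Fam168a (0.54), Erg (0.54), a stem cell ETS factor, Sclt1 (0.50) and Nono (0.48). Among themselves the members were weakly alike, from 0.11 for Runx3 with Cbfb to 0.38 for Runx2 with Cbfb. The sums of a plate share a library and depth, and these values are a description.

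Genes that work with RUNX proteins, and their targets, were counted from lists. The lists were chosen with earlier results of these data known, so the counts from them are a description and got no test as a set. Of 24 genes of corepressors and coactivators, 18 to 19 were tested in each tercile comparison. By CD135, 2 passed as higher and 1 as lower, where 6.05% and 5.12% of all tested genes passed in these directions. Tle3, a Groucho corepressor, rose (0.38 ± 0.13, edgeR adjusted p = 0.044), as did the acetyltransferase gene Crebbp (0.27 ± 0.08, adjusted p = 0.023), and Cdk6, whose kinase binds RUNX1, fell by 0.16 (SE 0.03, adjusted p = 0.001). By Sca1, 3 were higher (Kmt2a, Cbfa2t3 and Crebbp, 0.33, 0.30 and 0.23) and Cdk6 was lower (-0.36 ± 0.03), against 5.63% and 6.20% of all genes. By GFP, Tle3 was higher in GFP-low cells (0.76 ± 0.12) and Cdk6, Kmt2a and Cbfa2t3 were lower (-0.36, -0.25 and -0.23), against 3.80% and 3.94% of all genes. By CD150, Cdk6 alone passed (0.22 ± 0.04), against 1.51% higher and 0.549% lower. The list medians were between -0.09 and 0.00, and the medians of all tested genes were within 0.01 of 0.

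All 15 transcription factor partners of RUNX1 were tested. In GFP-low cells 6 were lower and 2 higher, against 3.94% and 3.80% of all tested genes, with Gata2 (-1.33 ± 0.09) and Meis1 (-0.73 ± 0.08), both stem cell factors, Myb (-0.34 ± 0.05), and on the other side Ets1 (1.42 ± 0.18), a lymphoid ETS factor. By CD135, 5 were lower and 2 higher in the CD135-high cells, against 5.12% and 6.05% of all genes. Gata1, the erythroid and megakaryocyte factor, fell by 2.59 (SE 0.27), Gata2 by 1.07 (SE 0.09), Tal1 by 0.61 (SE 0.11) and Myb by 0.35 (SE 0.05). By CD150, Gata1 (1.37 ± 0.25) and Gata2 (0.37 ± 0.09) were higher and none was lower, against 1.51% and 0.549% of all genes. By Sca1, 3 were higher and 2 lower, against 5.63% and 6.20%: Meis1 (0.69 ± 0.08) and Lmo2 (0.38 ± 0.05) rose, and Gata1 (-2.12 ± 0.30) and Cebpa (-0.79 ± 0.16), the myeloid factor, fell. The list medians were -0.26 by GFP, -0.03 by CD135, -0.05 by CD150 and 0.04 by Sca1.

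Of 22 genes known as targets of RUNX1, 11 to 13 were tested. By CD135, 8 were lower and 2 higher in CD135-high cells, against 5.12% and 6.05% of all tested genes. The list median was -0.73, and the medians of all tested genes were within 0.01 of 0 in each comparison. The granule protein genes Elane (-2.22 ± 0.13) and Mpo (-1.15 ± 0.07) and the platelet genes Pf4 (-2.22 ± 0.23) and Itga2b (-1.40 ± 0.16) led. By Sca1, 7 were lower and 1 higher, against 6.20% and 5.63% of all genes, with a list median of -0.81, led by Mpo (-0.96 ± 0.05), Elane (-0.83 ± 0.09), the B cell factor gene Ebf1 (-1.67 ± 0.21) and Pf4 (-1.49 ± 0.23). By GFP, 4 were lower and 3 higher in GFP-low cells, against 3.94% and 3.80%, with a list median of -0.16 and Itga2b (-1.78 ± 0.15) and Pf4 (-1.97 ± 0.21) lower and Ebf1 (2.33 ± 0.18) higher. By CD150, 2 were higher, Pf4 (1.66 ± 0.25) and Itga2b (0.71 ± 0.15), and Gfi1 was lower (-0.54 ± 0.13), against 1.51% and 0.549%, with a list median of -0.09. Pf4 and Itga2b are also on the megakaryocyte and platelet marker list and Ebf1 on the B lineage list. Summed levels of both lists by GFP, and of the B lineage list by CD135, are given above. The megakaryocyte and platelet sum by CD135 had a median of 107 CPM (range 59.6 to 177) in CD135-low cells. In CD135-high cells it was 30.5 CPM (15.7 to 42.5). The part of such cells in these counts was not tested. Of 12 target genes of RUNX2 and RUNX3, mostly bone and T cell genes, 1 was tested in each comparison. This was Itgal, the gene of the LFA-1 α chain, higher in CD135-high (0.69 ± 0.18, edgeR adjusted p = 0.0079) and in GFP-low cells (1.07 ± 0.16, adjusted p = 1.2e-06), with -0.34 by Sca1 and -0.06 by CD150, which did not pass.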

How the data were processed

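Counts per gene and well were deposited by the authors as whole numbers for 8 plates of 383 wells. The build in the submitters' processing notes is GRCh 38, a human one, although the identifiers are mouse. Alignment, counting, strand and molecular tag handling: not given in the sources used here. Fluorescence intensity of each sorted cell was deposited with channels named per the file headers; its values were linear and partly below 0. Other deposited values were forward scatter, used in 1 alternative, and well barcodes, which joined the sort records of LCE plates to counts. All 8 tables use the same 383 well names, and no 2 kept cells had identical counts. Replicates 1 to 4 are the LC plates and 5 to 8 the LCE plates.

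Of 2987 wells with counts and a sort record, 2712 cells with at least 1000 counts, 500 genes and under 20% mitochondrial counts were kept. Wells were sorted in single-cell mode per the labels, and no doublet caller was run. Symbols matched 27249 of 27318 identifiers. Counts were summed per plate and tercile (10 cells or more per sum, 5 in the fit of 4 proteins) and compared by the quasi-likelihood test of edgeR 4.0.16 with filterByExpr, TMM scaling and the plate as a block, in R 4.3.3. P-values were adjusted by Benjamini-Hochberg over all tested genes, with a threshold of 0.05. The p-values reflect how much the difference between arms varied from plate to plate, part of which may be technical. Which mice supplied each plate is not in the labels, so the p-values are not shown to cover variation between animals. Both arms come from the same plate, so plates pair them by design; arms of a plate deviated together (correlation 0.326 to 0.642). Log2 ratios per plate used a pseudocount of 1 CPM. The fits were tested on simulated data. Alternatives were DESeq2 1.42.0, other normalisation, filters, arms, cells and plates. Named genes are the 4 members, up to 4 called genes per RUNX list and comparison with the smallest adjusted p, and the 5 genes nearest to each member with a mean of at least 20 CPM. The members and lists were chosen with earlier results of these data known. Comparing Runx2 with the other members by the sign-flip test was chosen after the values were seen. Some genes that meet the naming rule are not reported here.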

Additional observations from a re-analysis of the deposited data

Results flagged for a closer look

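A search for a plate far from the others, over 44 groups of values of the 4 genes, found 4, where chance gives about 1 in 20 groups. The Cbfb log2 ratio of CD150-high over CD150-low cells was -0.42 on replicate 1, where the other 7 plates lay between 0.00 and 0.25. The Cbfb ratio by Sca1 was 0.57 on the same plate, where the others lay between -0.43 and 0.03. The Runx1 ratio of Sca1-high over Sca1-low cells was -0.51 on replicate 8, where the others lay between -0.31 and -0.16; without that plate the edgeR difference was -0.20 (adjusted p = 0.095). Runx2 in the CD135-high, GFP-high gate was 163 CPM on replicate 7, where the other 3 LCE plates lay between 105 and 114 CPM. No member's difference between the LC and LCE plates passed the test. The closest by adjusted p were Runx2 by CD150 among CD135-low cells (-0.71 ± 0.30, edgeR adjusted p = 0.23) and Runx2 by CD135 (-0.46 ± 0.19, adjusted p = 0.39).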

How the results depend on the processing

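Over 20 or fewer alternatives per result, 449 of 500 member values kept direction and side of the threshold, 37 reversed, 13 lost the call and 1 gained it. The percentages of tested genes called, in the order GFP, CD135, CD150, Sca1, GFP among CD135-high and CD150 among CD135-low cells, were 1.82, 1.68, 0.0771, 0.157, 0.325 and 0.112 without the plate as a replicate block (no pairing). They were 4.31, 5.56, 0.8, 5.04, 1.67 and 0.224 with DESeq2, 4.89, 3.94, 1.5, 4.44, 2.87 and 1.02 with thinned cells, and 5.77, 4.07, 5.28, 3.15, 2.33 and 2.07 on LCE plates alone. LC plates alone gave 3.87 (GFP), 0.747 (CD150), 1.69 (GFP among CD135-high) and 2.02 (CD150 among CD135-low). GFP corrected for scatter on LCE plates gave 4.85, and LC plates alone gave 7.13 for Sca1. Without the filter, which adds genes of few counts to those tested, the 6 percentages were 3.92, 5.14, 1.09, 4.88, 1.42 and 0.757. CD150 without replicate 6 gave 1.36, and leaving out B lineage and mature cells gave 6.78 for Sca1 and 5.61 for CD150 in the fit of 4 proteins. The causes were not tested. Without the block, Runx2 by Sca1 was 0.5462 and Runx1 by Sca1 -0.2389, neither past the threshold. Runx1 by Sca1 also lost its call with DESeq2 (-0.2414), on LC (-0.1881) or LCE plates (-0.2962), with cells split at the plate median (-0.1139), thinned (-0.144) and without B lineage and mature cells (-0.1464), and was -0.244 to -0.198 with a plate left out. Runx2 by Sca1 lost it with ranks in the fit of 4 proteins (0.4099), and Runx2 by CD150 gained it on LCE plates (-0.4526).

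The reversed values were all of results that had not been called. On LCE plates alone they were Runx1 by GFP (0.0588) and CD135 (-0.03) and Runx3 by CD150 (-0.0412), and with scatter correction Runx1 by GFP (0.0038). On LC plates alone they were Runx1 (0.0107) and Cbfb (-0.0242) by CD150, Runx3 by Sca1 (0.0304), Runx1 by GFP among CD135-high (-0.0203) and Runx2 by CD150 among CD135-low cells (0.208). Thinning reversed Runx2 (-0.0204) and Runx3 (0.1003) by GFP, Runx1 by CD135 (-0.1253), Runx3 by CD150 (-0.0048), Cbfb by Sca1 (0.0541) and Cbfb by GFP among CD135-high cells (0.0208). The split at the median reversed Runx3 by CD150 (-0.0427) and Runx2 by GFP among CD135-high cells (0.0129). Leaving out B lineage and mature cells reversed Runx1 by CD135 (-0.0037), Cbfb by CD150 (-0.0059) and Runx1 by CD150 among CD135-low cells (-0.1118). Leaving out cells with at least 4 B lineage genes, an alternative chosen after seeing the data, reversed Runx1 by CD150 (0.0137; among CD135-low cells -0.0124). A minimum of 2500 counts reversed Cbfb by CD150 among CD135-low cells (-0.0088). With 1 plate left out, ranges were -0.0517 to 0.0282 (Runx1), -0.027 to 0.0395 (Runx3) and -0.0353 to 0.0793 (Cbfb) by CD150. Among CD135-high cells by GFP they were -0.0537 to 0.0924 (Runx1), -0.1216 to 0.0004 (Runx2) and -0.0139 to 0.1638 (Runx3). Among CD135-low cells by CD150 they were -0.0808 to 0.1177 (Runx1) and -0.0223 to 0.0735 (Cbfb), with 0.411% to 1.05% of genes called (lowest without replicate 2, highest without replicate 7). In the fit of 4 proteins without B lineage and mature cells, Runx2 and Runx3 did not pass the count filter. For the GFP comparison, changes were simulated in 200 genes drawn from all 10312 tested. Of the 1.5-fold changes 62% were recovered and of the 2-fold changes 92%, with 9 false calls. These shares are over genes of all levels and not specific to the 4 members, whose smaller differences could be missed.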
